A study of Homo sapiens with 4 samples.

Results

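Catecholamine synthesis and storage genes were examined in BE(2)C cells, a human neuroblastoma line in which MYCN is amplified. The set was chosen by name and by function, with earlier results of these data known. It held TH, DDC and DBH for synthesis, SLC18A1 and SLC18A2 for uptake into vesicles, SLC6A2 for reuptake into the cell, CHGA and CHGB for the granule matrix, and MAOA for breakdown. All 9 genes were found among the 26364 gene rows of each sample. The 2 samples of the control group (Ctrl) were given a siRNA with no target, and the 2 samples of the knockdown group (MYCN KD) a siRNA against MYCN. Per the labels, both groups were transfected with 80 nM siRNA in a lipid reagent for 6 hours, and total RNA was taken the next day. The study's methods state a lower final concentration, given for the volume after an equal volume of medium was added at the end of the 6 hours. Both groups therefore share the MYCN amplification, the transfection and a single cell line as model.

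Catecholamines are made from tyrosine in a chain of enzymes: tyrosine hydroxylase (TH) makes L-DOPA and is the rate-limiting step, aromatic L-amino acid decarboxylase (DDC) makes dopamine, and dopamine beta-hydroxylase (DBH) makes noradrenaline inside the vesicle. Vesicular monoamine transporters load the amines into dense-core granules in exchange for protons, chromogranins bind them there, and the noradrenaline transporter takes released noradrenaline back. Neuroblastoma arises from the sympathoadrenal lineage, and its cells commonly keep this program, so that catecholamine breakdown products are used in the clinic to detect the tumour.

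Gene levels are given as RPKM (reads per kilobase of gene, scaled to the sample's total reads), which allows levels of different genes to be compared per length. The totals behind the values, worked out from the RPKM themselves, lay between 29055819 and 34142988 reads per sample. MYCN itself had 1068 and 1073 RPKM in Ctrl replicates 1 and 2 and 720.2 and 718.0 RPKM in MYCN KD replicates 1 and 2, a log2 fold change of -0.57 (95% interval -0.66 to -0.49; limma with Benjamini-Hochberg adjustment, adjusted p = 0.00361). The targeted transcript thus kept 0.672 of its control level. Of the 11411 genes with a mean of at least 1 RPKM, 25.3% rose and 22.8% fell at an adjusted p under 0.05, so that calls in either direction were common. Over these genes, the deviations of the samples numbered 1 from their group means correlated at -0.985 between the groups, and at all 9 catecholamine genes they also pointed in opposite directions. The study's methods call the RNA-seq replicates biological, but neither they nor the labels say whether these came from separate cultures. The p-values thus measure the spread between these samples, which may be technical. Because the deviations of the groups mirror each other, their spreads are not independent, although the fit treats them as independent. The standard errors, intervals and p-values given here rest on that assumption.

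The line expressed genes of its lineage. The 7 markers of the sympathetic lineage, among them PHOX2A, HAND2, GATA3, ISL1, STMN2 and ELAVL4, were all above the filter, with summed levels of 760.0 and 764.7 RPKM in Ctrl cells against 1231 and 1229 RPKM in MYCN KD cells. Of the 7, PHOX2A, HAND2, ISL1, STMN2 and ELAVL4 rose and 1 fell, against 25.3% and 22.8% of all tested genes. PTPRC of immune cells, SOX10 of Schwann cells, PECAM1 of endothelium and NR5A1 of the adrenal cortex each stayed under 0.1 RPKM in every sample. Other markers of these cell types were present, among them S100B of Schwann cells with 3.86 to 7.29 RPKM and CD68 of immune cells with 3.45 to 11.48 RPKM. STAR of the adrenal cortex had 1.93 to 2.16 RPKM. Mesenchymal markers were present too, among them TWIST1 with 39.07 to 49.48 RPKM and PDGFRB with 10.1 to 11.81 RPKM. The whole lists are summarized at the end.

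The sequence just upstream of the transcript start is shown for 1 gene of each of 3 roles, synthesis, vesicle uptake and granule matrix, because these are roles in which genes rose. RefSeq (GRCh38.p14) held a promoter entry for 5 of the 9 genes, DDC with a pair of starts, which makes 6 entries. The windows span 250 bases before the start, 5′ to 3′ on the coding strand, and lie at chr9:133636113-133636362 on the plus strand for DBH, at chr10:117240864-117241113 on the plus strand for SLC18A2 and at chr14:92922900-92923149 on the plus strand for CHGA. Capitals mark ATTA (or TAAT on the other strand), the core letters that homeodomain factors such as PHOX2A bind, in DBH, and TGACGTCA, the cyclic AMP response element, in SLC18A2 and CHGA.
DBH: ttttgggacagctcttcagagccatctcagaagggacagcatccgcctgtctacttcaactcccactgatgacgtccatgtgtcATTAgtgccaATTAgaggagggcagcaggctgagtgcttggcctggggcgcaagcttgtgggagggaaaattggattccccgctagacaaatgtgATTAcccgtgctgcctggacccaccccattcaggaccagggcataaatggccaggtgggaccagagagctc
SLC18A2: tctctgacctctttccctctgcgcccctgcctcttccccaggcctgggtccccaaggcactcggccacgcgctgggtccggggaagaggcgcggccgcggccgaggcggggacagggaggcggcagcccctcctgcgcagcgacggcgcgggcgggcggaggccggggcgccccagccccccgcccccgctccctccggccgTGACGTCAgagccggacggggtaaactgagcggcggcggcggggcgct
CHGA: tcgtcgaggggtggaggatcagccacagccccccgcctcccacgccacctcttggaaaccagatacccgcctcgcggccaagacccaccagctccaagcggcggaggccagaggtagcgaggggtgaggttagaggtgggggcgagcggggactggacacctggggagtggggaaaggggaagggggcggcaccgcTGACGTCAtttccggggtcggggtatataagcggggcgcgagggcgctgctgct

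These motifs were chosen after earlier results and the sequences were known, and a match is a description of letters and not of binding. DBH had ATTA 166, 156 and 71 bases before the start, and 47.4% of the 35116 RefSeq promoter windows of this length held that motif on either strand. In DDC the upstream start had 4 matches, of which an ATTA and a TAAT overlap, and the downstream start had 1. MAOA had 1. The cyclic AMP response element began 54 bases before the start of CHGA and 48 bases before that of SLC18A2, and 1.65% of all windows held it. CACGTG, the E-box letters to which MYC family proteins bind, was in 0 of the 6 windows and in 6.34% of all windows, which says only that these letters are absent from these 250 bases. TH, SLC18A1, SLC6A2 and CHGB had no entry.

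In MYCN KD cells, 7 of the 8 genes that passed the filter rose, none fell and TH did not pass the test. The share of all tested genes that rose was 25.3%. All 9 genes, MAOA included, had both MYCN KD values above both Ctrl values, which was also the case for 40.4% of the tested genes. The median log2 fold change was 0.78 over the 8 tested genes (0.64 with MAOA included) and 0.026 over all genes tested. The noradrenaline transporter and both vesicular transporters had log2 fold changes above 1, DBH followed, and TH, CHGA and DDC had the smallest. DBH (1.03) was above SLC18A2 without Ctrl replicate 1 (0.94) or MYCN KD replicate 1 (0.93) and with quantile normalization (1.02 against 0.98), and SLC18A1 was at 0.98 and 0.99 without Ctrl replicate 2 or MYCN KD replicate 2. Because RNA was measured in bulk, more cells of one kind and more RNA per cell cannot be told apart.

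**Figure D1:**
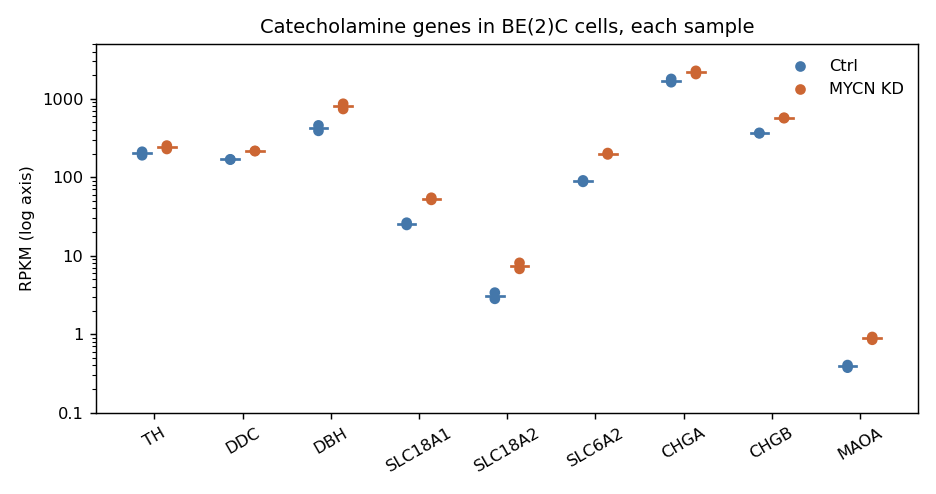
RPKM (log axis) of each of the 9 catecholamine genes, with 1 point per sample, Ctrl in blue and MYCN KD in orange, and a horizontal bar at each group mean. Levels span from MAOA, under 1 RPKM, to CHGA, with 1627 RPKM in its lowest sample, and every pair of MYCN KD points lies above its pair of Ctrl points.

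TH, DDC and DBH stand in order along the synthesis chain. TH (GRCh37 chromosome 11, 2185159 to 2193045, minus strand, 13 exons in its canonical transcript) had 211.5 and 190.6 RPKM in control and 229.2 and 253.5 RPKM in knockdown samples. The groups did not overlap, but the lowest MYCN KD sample was only slightly above the highest Ctrl sample. The log2 fold change of TH was 0.26 (95% interval 0.015 to 0.51, n = 2 per group), and limma gave an adjusted p of 0.0771 after Benjamini-Hochberg correction, which does not pass the threshold. TH was called, with an adjusted p of 0.00888 or 0.0116, when Ctrl replicate 1 or MYCN KD replicate 1 was left out of the limma fit.

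DDC, the decarboxylase, lies on chromosome 7 from 50526134 to 50633102 on the minus strand (15 exons). It had 167.8 and 169.4 RPKM in Ctrl cells against 217.1 and 215.1 RPKM in MYCN KD cells. The replicates of each group lay close together and the groups were well apart. The rise of 0.36 on the log2 scale (SE 0.030), a ratio of means of 1.28, passed the test (limma, Benjamini-Hochberg adjusted p = 0.00588). The point estimate for DDC lay within the interval for TH, and the DDC to TH ratio within a sample ran from 0.793 to 0.889 in Ctrl and from 0.849 to 0.947 in MYCN KD, so that these ranges overlap. The antisense gene DDC-AS1, which overlaps DDC, had at most 0.141 RPKM in any sample.

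DBH, the enzyme that marks noradrenergic cells, lies on chromosome 9 from 136501485 to 136524451 on the plus strand (12 exons). Its levels were 458.6 and 390.5 RPKM in control and 741.2 and 865.2 RPKM in knockdown samples. All 4 values were above those of TH in the same sample. The mean rose from 424.5 ± 48.2 to 803.2 ± 87.7 RPKM (SD, n = 2 each), a ratio of 1.89 and a log2 fold change of 0.92 (SE 0.125; limma, Benjamini-Hochberg adjusted p = 0.0129). DBH moved from rank 115 to rank 53 among all genes by mean RPKM. The DBH to TH ratio was 2.17 and 2.05 in the Ctrl samples and 3.23 and 3.41 in the MYCN KD samples, without overlap. An antisense gene, DBH-AS1, overlaps DBH and had 1.72 and 1.5 RPKM in Ctrl cells against 2.71 and 3.08 RPKM in MYCN KD cells. Whether reads were counted by strand is not stated, so reads of the pair cannot be fully told apart, but DBH-AS1 stood far below DBH in every sample.

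The vesicular monoamine transporters fill the granule with amine. SLC18A1 (VMAT1), the form typical of chromaffin cells, lies on chromosome 8 from 20002366 to 20040717 on the minus strand (16 exons) and had 26.35 and 24.66 RPKM in control and 51.48 and 54.82 RPKM in knockdown samples. The MYCN KD values were clearly apart from the Ctrl values. The ratio of means was 2.08 and the log2 fold change 1.03 (SE 0.058; limma, Benjamini-Hochberg adjusted p = 0.00391).

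SLC18A2 (VMAT2), the form typical of neurons, lies on chromosome 10 from 119000604 to 119038941 on the plus strand (16 exons). It was much lower than SLC18A1, with 2.82 and 3.38 RPKM in Ctrl cells against 8.12 and 6.79 RPKM in MYCN KD cells. These values stood for 373 and 419 reads in the Ctrl samples and 913 and 814 reads in the MYCN KD samples. Exact Poisson intervals on these reads, not scaled to the totals, did not overlap between the groups (336 to 413 and 380 to 461 against 855 to 974 and 759 to 872). They cover counting error only, and that only if the reads are mapped and not adjusted, which was not tested. The log2 fold change was 1.04 (SE 0.120; limma, Benjamini-Hochberg adjusted p = 0.00946). At this low level the added 1 RPKM shortens the fold change, and without it the log2 ratio of the means was 1.26. SLC18A1 stood at 9.34 and 7.29 times SLC18A2 in Ctrl and 6.34 and 8.07 times in MYCN KD, ranges that overlap. The 3′ end of SLC18A2 overlaps PDZD8 on the opposite strand, which had 6.53 and 7.69 RPKM in control and 8.21 and 7.01 RPKM in knockdown samples (log2 fold change 0.09; limma, Benjamini-Hochberg adjusted p = 0.572). PDZD8 was higher than SLC18A2 in every sample, though only slightly in the MYCN KD samples. Without knowing the strand used in counting, reads where they overlap cannot be told apart.

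SLC6A2, the noradrenaline transporter, which also carries the tracer MIBG used to image neuroblastoma, lies on chromosome 16 from 55689900 to 55741557 on the plus strand (15 exons). It had 91.25 and 87.38 RPKM in Ctrl cells against 195.5 and 203.7 RPKM in MYCN KD cells. Replicates differed little and the groups were far apart. The mean rose from 89.3 ± 2.7 to 199.6 ± 5.8 RPKM (SD, n = 2 each), a ratio of 2.23. Its log2 fold change of 1.15 (SE 0.044; limma, Benjamini-Hochberg adjusted p = 0.00359) was above that of 99.1% of all tested genes. It was the largest of the 8 on this scale, but SLC18A2 was above it with a pseudocount of 0.1 (1.24 against 1.16), with voom on the recovered reads (1.26 against 1.16) and without Ctrl replicate 2 (1.14 against 1.12) or MYCN KD replicate 2 (1.16 against 1.12). SLC6A2 moved from rank 924 to rank 307 by mean RPKM.

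**Figure D2:**
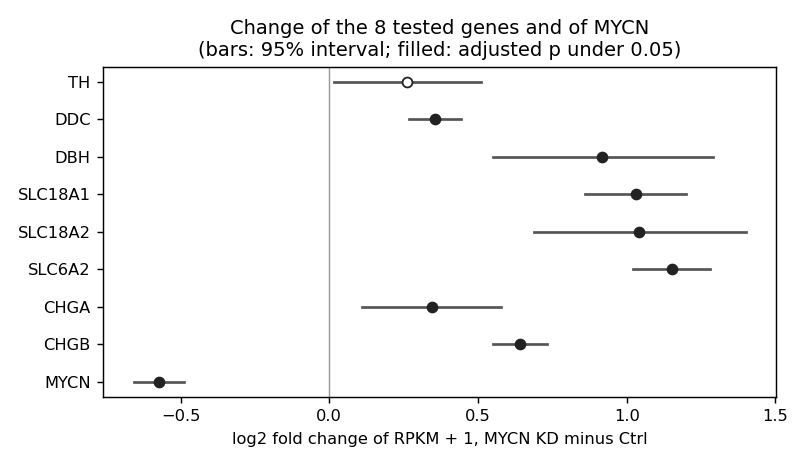
Log2 fold change (MYCN KD minus Ctrl, on log2(RPKM + 1)) of the 8 tested catecholamine genes and of MYCN, with bars for the 95% interval of the limma fit and filled points for an adjusted p under 0.05. The 3 transporters lie above 1, TH is the only open point and MYCN lies at -0.57.

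The chromogranins are the acidic proteins that form the granule core together with amines and calcium. CHGA, which lies on chromosome 14 from 93389495 to 93401630 on the plus strand (8 exons), was the highest of the 9 genes, with 1793 and 1627 RPKM in control and 2068 and 2273 RPKM in knockdown samples. It was already rank 13 of all genes in Ctrl and was rank 7 in MYCN KD. The groups did not overlap, but the replicates of each group were spread. The rise of 0.34 on the log2 scale (SE 0.079) passed the test with limma and Benjamini-Hochberg adjustment (adjusted p = 0.0380), but not with the low genes included in the adjustment (adjusted p = 0.0695).

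CHGB, on chromosome 20 from 5892156 to 5905999 on the plus strand (5 exons), had 362.5 and 368.4 RPKM in Ctrl cells against 574.8 and 565.7 RPKM in MYCN KD cells. Its replicates lay close together. The log2 fold change of 0.64 (SE 0.031; limma, Benjamini-Hochberg adjusted p = 0.00359) corresponded to a ratio of means of 1.56. CHGA stood at 4.95 and 4.42 times CHGB in Ctrl and at 3.6 and 4.02 times in MYCN KD.

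MAOA, the mitochondrial monoamine oxidase that breaks down amines outside the granule, lies on chromosome X from 43514155 to 43606064 on the plus strand (15 exons). It was the lowest of the 9 genes and under the filter of 1 RPKM, with 0.404 and 0.374 RPKM in control and 0.848 and 0.921 RPKM in knockdown samples. These values stood for 75 and 65 reads in the Ctrl samples and 134 and 155 reads in the MYCN KD samples. The exact Poisson intervals of the Ctrl samples (59.0 to 94.0 and 50.2 to 82.8) ended below those of the MYCN KD samples (112 to 159 and 132 to 181). The limits given for the intervals of SLC18A2 hold for these as well. The ratio of means was 2.27. When all 19908 genes above 0 were tested with limma, of which 17.0% rose, MAOA had a Benjamini-Hochberg adjusted p of 0.00976. Its log2 fold change of 0.44 on the log2(RPKM + 1) scale compares with 1.19 for the log2 ratio of the means without the added 1.

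Levels of the 9 genes thus differed far more from gene to gene than between the groups, with 4400-fold between the mean Ctrl RPKM of CHGA and MAOA. In Ctrl the order was CHGA, DBH, CHGB, TH, DDC, SLC6A2, SLC18A1, SLC18A2 and MAOA, and the order of the means was the same in MYCN KD, with no overlap of neighbours in this order within either group. The Ctrl values of DBH and CHGB were neighbours that nearly met, with 390.5 RPKM in the lowest DBH sample and 368.4 RPKM in the highest CHGB sample. Of the 9 genes, all but SLC18A2 and MAOA had at least 20 RPKM in every sample. Among all tested genes, 7 of the 8 lay above the 75th percentile of the log2 fold change (0.29), with TH above 73.3% of genes, CHGA above 79.4%, DDC above 80.2%, CHGB above 93.0%, DBH above 97.6% and both vesicular transporters above 98.5%.

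**Figure D3:**
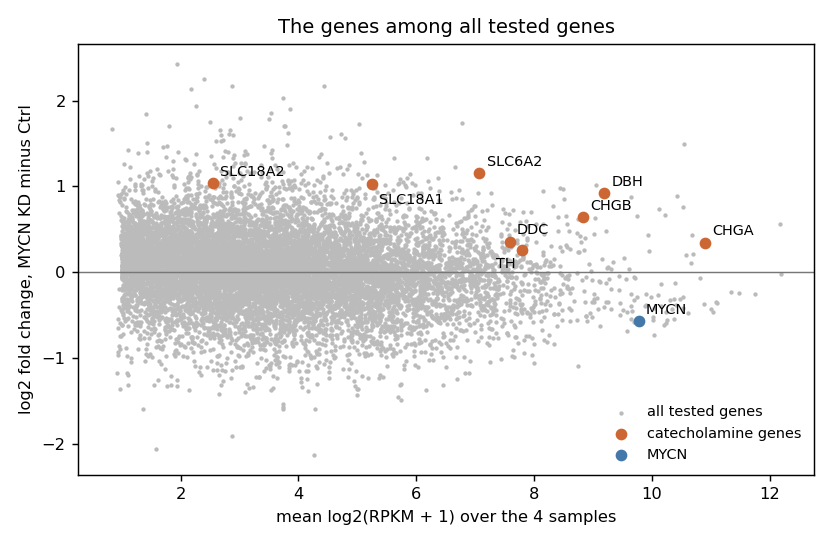
Log2 fold change (MYCN KD minus Ctrl) against the mean log2(RPKM + 1) over the 4 samples for the 11411 tested genes in grey, the 8 tested catecholamine genes in orange and MYCN in blue. The 8 genes lie above 0 over nearly the whole range of levels, and genes with larger changes in either direction are present at lower levels.

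The other genes of the pathway were described from lists set by function. The 3 largest called changes of each list are named by rule, as are GCH1, PNMT, MAOB and SLC6A3, and any other gene was chosen for naming after its values were seen. Tetrahydrobiopterin is the cofactor that TH needs. Of the 7 genes that make, recycle or control it, 2 rose, 1 fell and 4 did not pass, with a median log2 fold change of 0.065. Of all tested genes, 25.3% rose and 22.8% fell, shares close to these. GCH1, the entry enzyme of cofactor synthesis, had 15.57 and 19.03 RPKM in Ctrl cells against 30.98 and 25.49 RPKM in MYCN KD cells (log2 fold change 0.68; limma, Benjamini-Hochberg adjusted p = 0.0349, and 0.0569 with low genes included). SPR, sepiapterin reductase and the last step, fell from 10.28 and 9.62 to 6.39 and 6.82 RPKM (log2 fold change -0.53; limma, Benjamini-Hochberg adjusted p = 0.00896). PCBD2 rose by 0.47 on the log2 scale.

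Of 12 other enzymes and transporters that handle catecholamines, 7 were tested, and 4 of the 12 were under 0.1 RPKM in every sample. Of the 7, 4 rose, 2 fell and 1 did not pass, against 25.3% and 22.8% of all tested genes that rose and fell. With the replicate block, 3 rose and 1 fell. CYB561, the granule membrane cytochrome that supplies DBH with electrons from ascorbate, had 372.4 and 373.9 RPKM in control and 758.2 and 754.6 RPKM in knockdown samples (log2 fold change 1.02; limma, Benjamini-Hochberg adjusted p = 0.00359). Its ratio to DBH within a sample ran from 0.812 to 0.957 in Ctrl and from 0.872 to 1.02 in MYCN KD, ranges that overlap. PNMT, which turns noradrenaline into adrenaline, stayed low but rose from 1.23 and 1.07 to 2.56 and 2.93 RPKM (log2 fold change 0.80; limma, Benjamini-Hochberg adjusted p = 0.00690). SLC29A4, a low-affinity monoamine transporter of the plasma membrane, rose by 0.80 and ALDH2, an aldehyde dehydrogenase, by 0.23 on the log2 scale. ALDH2 lost its call with the replicate block, while CYB561, PNMT and SLC29A4 kept theirs. The aldehyde and aldose reductases AKR1A1 and AKR1B1 fell by 0.26 and 0.41 on the log2 scale. MAOB and the dopamine transporter SLC6A3 were near 0 in every sample, as were TPH1 and TPH2, the hydroxylases related to TH that handle tryptophan. The noradrenaline transporter was thus the only one of this pair of transporters above 0.1 RPKM.

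The granule itself was followed through 17 other dense-core granule genes, 12 of them tested, of which 8 rose, 1 fell and 3 did not pass (median log2 fold change 0.43), against 25.3% and 22.8% of all tested genes that rose and fell. SYT1, a calcium sensor of vesicle release, rose from 31.02 and 36.71 to 72.46 and 61.50 RPKM (log2 fold change 0.96; limma, Benjamini-Hochberg adjusted p = 0.0125). CADPS, which primes granules for release, and PTPRN, a granule membrane protein, each rose by 0.52 on the log2 scale. SYT4 fell by 0.40 on the log2 scale, a call lost with low genes included (limma, Benjamini-Hochberg adjusted p = 0.0582) and without Ctrl replicate 2 or MYCN KD replicate 2. The granule is acidified by the vacuolar proton pump, and of its 16 tested genes 7 rose, 2 fell and 7 did not pass (median 0.15). These counts were 4 and 4 without Ctrl replicate 1 or without MYCN KD replicate 1, 5 and 3 without Ctrl or MYCN KD replicate 2, and 4 and 3 with the replicate block. ATP6V1A, the catalytic subunit, had a log2 fold change of 0.64 (19.05 and 22.35 RPKM in Ctrl, 35.42 and 30.33 RPKM in MYCN KD), ATP6V0D1 had 0.46, and the subunits ATP6V1G1 and ATP6V0B fell by 0.49 and 0.39 on the log2 scale. With low genes included, ATP6V0D1 no longer passed (limma, Benjamini-Hochberg adjusted p = 0.0614). Pump genes were thus called in both directions, while the transporters that use its gradient both rose.

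**Figure D4:**
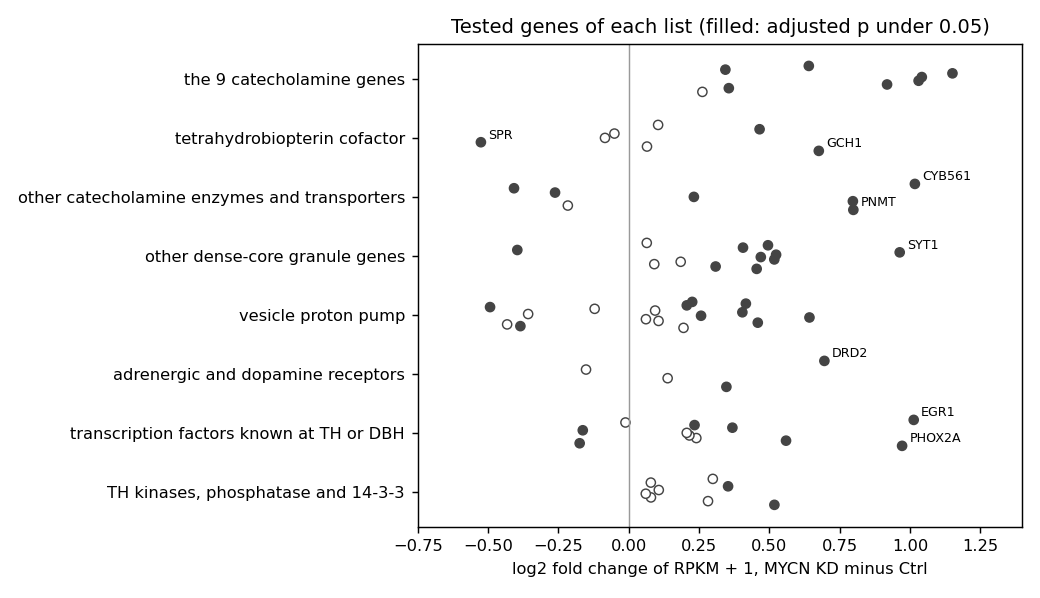
Log2 fold change (MYCN KD minus Ctrl) of the tested genes of each pathway list, 1 point per gene, filled where the adjusted p was under 0.05 and spread vertically only for legibility. The catecholamine genes lie wholly to the right of 0, and cofactor and proton pump genes lie on both sides.

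Of 14 receptors for adrenaline, noradrenaline and dopamine, 4 were tested and 7 were under 0.1 RPKM in every sample. DRD2, the dopamine receptor that also acts as an autoreceptor on releasing cells, rose from 94.40 and 87.98 to 143.3 and 153.3 RPKM (log2 fold change 0.70; limma, Benjamini-Hochberg adjusted p = 0.00620). ADRA2A, an inhibitory adrenergic receptor, rose by 0.35 but lost the call when Ctrl replicate 2 or MYCN KD replicate 2 was left out (limma, Benjamini-Hochberg adjusted p = 0.0817 and 0.0788), with the replicate block (0.0936) and with quantile normalization (0.0895). The other 2 tested receptors, ADRA2C among them, did not pass, while 25.3% of all tested genes rose.

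Of 14 transcription factors known to act at TH or DBH, 11 were tested, of which 5 rose, 2 fell and 4 did not pass (median log2 fold change 0.23). The shares over all tested genes were 25.3% that rose and 22.8% that fell. With any 1 of the 4 samples left out, 0 fell, as with either other scaling. EGR1, an immediate early factor, rose from 11.16 and 11.24 to 23.72 and 23.54 RPKM (log2 fold change 1.01; limma, Benjamini-Hochberg adjusted p = 0.00359). PHOX2A, a homeodomain factor of noradrenergic neurons, rose from 266.4 and 245.9 to 484.1 and 522.7 RPKM (log2 fold change 0.97; limma, Benjamini-Hochberg adjusted p = 0.00460), and HAND2, ISL1 and NR4A1 rose by 0.56, 0.37 and 0.23 on the log2 scale. With the replicate block only 4 factors rose, EGR1, PHOX2A and HAND2 among them. Of 8 tested kinases, phosphatases and 14-3-3 proteins that act on the TH protein, PRKACA and PPP2CB had log2 fold changes of 0.52 and 0.35 and were called, while 6 did not pass. The 2 called are close to the 25.3% of all tested genes that rose, and their number was 1 without Ctrl or MYCN KD replicate 1 and 4 without Ctrl or MYCN KD replicate 2. PPP2CB lost its call with low genes included (limma, Benjamini-Hochberg adjusted p = 0.0632) and without Ctrl replicate 1 or MYCN KD replicate 1 (0.0514 and 0.0624).

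Some markers of other cell types also rose, as did 25.3% of all tested genes, and few of these markers were tested. Of 9 fibroblast or mesenchymal markers, 5 were tested and COL1A1, DCN and PDGFRB rose (PDGFRB not with low genes included, limma Benjamini-Hochberg adjusted p = 0.0615). The summed level of the list was 69.12 and 74.83 RPKM in Ctrl cells against 73.62 and 68.13 RPKM in MYCN KD cells. TWIST1, which did not pass, made up most of that sum, and the other 8 markers summed to 23.32 and 25.35 RPKM against 31.56 and 29.06 RPKM, higher in both MYCN KD samples. Of 6 Schwann cell markers, 3 were tested and 2 rose, S100B among them, while 2, SOX10 among them, were near 0. The list summed to 14.8 and 15.5 RPKM in control and 19.9 and 19.6 RPKM in knockdown samples. Of 6 immune markers, 2 were tested, CD68 rose from 4.26 and 3.45 to 9.40 and 11.48 RPKM and 4 were near 0. Summed levels of 4 endothelial markers ran from 0.291 to 0.644 RPKM and those of 4 epithelial markers from 0.190 to 0.449 RPKM, higher in both MYCN KD samples, with no marker tested. EPCAM, on 8 and 8 reads against 21 and 21, made up most of the epithelial sum. The other 3 epithelial markers summed to 0.078 and 0.045 RPKM in Ctrl cells against 0.029 and 0.040 RPKM in MYCN KD cells. These sums rest on a few reads and give no direction. KRT14 had 4 and 2 reads in Ctrl against 0 and 1 in MYCN KD, CDH1 had 1 and 1 against 4 and 3, and KRT5 had 0 in every sample. The 5 adrenal cortex markers summed to between 2.07 and 2.39 RPKM, and the 1 tested did not pass. The part of these genes in the rise of the catecholamine genes was not tested.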

How the data were processed

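RNA-seq was deposited as RPKM, 1 file per sample. Per the labels, the authors aligned to hg19 using HISAT2 2.1.0, counted reads on RefSeq genes with featureCounts, processed the counts with DESeq2 and RUVSeq, and calculated the deposited RPKM from the normalized counts; the RUVSeq variant and number of factors are not given in the sources used here. The values are therefore already adjusted, and replicate spread is that left after adjustment. Whole reads were recovered from the RPKM of all 19908 genes above 0 (100.0%, tolerance 0.02 reads); whether they are mapped or adjusted reads was not tested.

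log2(RPKM + 1) was fitted with limma 3.58.1 (R 4.3.3, trended eBayes) for 11411 genes (mean RPKM 1 or more) in a fit that had no block, and two-sided p-values were adjusted by Benjamini-Hochberg (threshold 0.05). With 2 samples against 2, an exact permutation test cannot go below p = 0.3333. Intervals are 95%. Gene positions came from GENCODE on GRCh37. The genes and lists were chosen with earlier results of these data known, and named genes were the 9 genes, MYCN, the 3 largest called changes of each list and GCH1, PNMT, MAOB and SLC6A3. Some genes that the lists and this rule hold are not reported here. Alternatives were another pseudocount (0.1), filters, scalings, variance model, replicate block, voom on the recovered reads and leaving out each sample.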

Additional observations from a re-analysis of the deposited data

How the results depend on the processing

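All 116 values of the 9 genes under 13 alternatives were above 0, and 7 or 8 genes were called higher and 0 lower in each. TH (0.26) was called with the same RPKM total in each sample (0.32, limma Benjamini-Hochberg adjusted p = 0.0323) and with quantile normalization (0.40, 0.0113), and ranged from 0.19 to 0.34 when each sample was left out, called without Ctrl replicate 1 or MYCN KD replicate 1. Without the filter, CHGA (0.34) had an adjusted p of 0.0695. MAOA (0.44) had 1.01 with a pseudocount of 0.1, 0.36 with quantile normalization and 1.18 with voom, and no value when a mean RPKM of 5 or more was required. The median of the tested genes (0.78) was 0.64 without the filter, 0.84 with the same total, 0.84 with quantile normalization and from 0.73 to 0.79 when each sample was left out. Requiring a mean RPKM of at least 5 gave 1868 genes that rose. The causes were not tested beyond the fewer or other genes that a filter leaves.

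The replicate block gave 2077 genes that rose and 1851 that fell, and changed no call of the 9 genes (7 of 8 rose; TH adjusted p = 0.111). Same-numbered samples deviated in opposite directions (correlation -0.985 over 11411 genes). A crossed replicate block, added after seeing the data, was therefore also run. It gave 5910 genes that rose and 5262 that fell of the 11411, so nearly all genes were called. Built from the mirrored deviations of these same data, this block takes up most of the spread by construction. Its call of 8 of the 8 catecholamine genes, TH included (0.26), is therefore no added support. Of 281 values of 22 named pathway genes, 266 were counted as unchanged, 9 lost and 1 gained the call, 5 of untested genes moved and 0 reversed. For tested genes, unchanged means the same direction and call. For MAOB and SLC6A3, which were not tested, it means a value within the replicate SD of the main value. ALDH2, SYT4 and other genes named outside the rule are not among the 22. Of 182 list counts, 42 moved by over 1.5 times. Fits that leave out a sample or use the block have 1 residual degree of freedom, and a lone sample is assumed to vary like the other group. Among the 9 genes, MAOA rests on the fewest reads, 65 to 155 per sample.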

Other observations

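Several pathway genes under the filter had groups that did not overlap, and they were chosen after their values were seen. Both MYCN KD values were above both Ctrl values at 40.4% of the tested genes. That share was not worked out for genes under the filter. In the fit on all 19908 genes above 0, 17.0% rose and 2594 genes fell. CAMK2A, a kinase that phosphorylates TH, had 0.251 and 0.287 RPKM in Ctrl cells against 1.09 and 0.942 RPKM in MYCN KD cells (limma on all genes above 0, Benjamini-Hochberg adjusted p = 0.00978). ADRA2B, an adrenergic receptor, had 0.497 and 0.335 RPKM in control and 0.983 and 1.44 RPKM in knockdown samples (adjusted p = 0.0505 in the same fit). INSM1, a zinc finger factor of neuroendocrine cells, had 0.300 and 0.310 RPKM in Ctrl cells against 0.134 and 0.137 RPKM in MYCN KD cells (limma, Benjamini-Hochberg adjusted p = 0.00858), on 29 and 28 reads against 11 and 12.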
